A study of Mus musculus with 6 samples.

Results

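The 8 keratins of normal interfollicular epidermis, the skin surface between hair follicles, were followed gene by gene in RNA sequencing of whole mouse skin. They were Krt5, Krt14 and Krt15 of the basal layer, Krt1, Krt10, Krt2 and Krt77 of the suprabasal layers, and Krt80, chosen by gene symbol from the 23951 genes in the deposited table. All 8 were listed and all 8 passed the filter on low values. The libraries came from 3 control mice labelled JunB +/+ and 3 littermates labelled JunB dep, all of strain C57Bl/6 and 6 to 7 months old, and replicates are named 0, 1 and 2 as in the labels. In JunB dep mice a floxed Junb allele, which encodes a subunit of the AP-1 transcription factor, is removed by Cre recombinase under a keratin 5 promoter, so other skin cells keep the gene. Whether the controls carry the floxed allele or the Cre transgene is not given in the labels. The skin of the JunB dep mice was lesional. The sequenced RNA was that of all cells of the skin, and fewer cells of a type cannot be told apart from less RNA per cell.

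Keratins are the intermediate filament proteins of epithelia, and a filament is built from pairs of 1 acidic type I and 1 basic type II chain. Basal keratinocytes make Krt5 with Krt14, and Krt15 as a further type I chain. On leaving the basal layer the cells switch to Krt1 with Krt10, and the mouse epidermis adds Krt2 in thick skin such as that of the tail, ear and sole and Krt77 as a further type II chain. Krt80 is a type II chain that is found in many epithelia and is linked to differentiation.

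The members lie in the keratin gene clusters, type I on chromosome 11 and type II on chromosome 15. On mm9 with GENCODE vM1, Krt10 was at chr11:99246568-99250678, Krt15 at chr11:99993072-99997263 and Krt14 at chr11:100064476-100068862, each with 8 exons on the minus strand. Krt80 was at chr15:101177875-101200556, Krt5 at chr15:101537501-101543322, Krt2 at chr15:101641120-101648600, Krt1 at chr15:101675859-101681217 and Krt77 at chr15:101689163-101700136, each with 9 exons on the same strand. Krt1 and Krt77 were neighbours with 7945 bases between them. RefSeq promoter sequences were matched for 5 of the 8 members, namely Krt5, Krt14, Krt10, Krt2 and Krt77. The 250 bases upstream of the start site on GRCm38.p6, minus strand, are shown 5′ to 3′ for Krt5, Krt10 and Krt77, which lay above, within and below the range of the controls in the library labelled JunB dep replicate 0. Capitals mark matches to a TATA box, TATANA searched on both strands, and overlapping matches are merged. The windows are chr15:101712906-101713155 for Krt5, chr11:99389365-99389614 for Krt10 and chr15:101869706-101869955 for Krt77.
Krt5: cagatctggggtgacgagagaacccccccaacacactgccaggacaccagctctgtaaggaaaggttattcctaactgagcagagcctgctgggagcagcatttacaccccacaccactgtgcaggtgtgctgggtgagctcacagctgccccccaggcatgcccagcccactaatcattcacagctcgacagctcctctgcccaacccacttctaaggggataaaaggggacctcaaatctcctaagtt
Krt10: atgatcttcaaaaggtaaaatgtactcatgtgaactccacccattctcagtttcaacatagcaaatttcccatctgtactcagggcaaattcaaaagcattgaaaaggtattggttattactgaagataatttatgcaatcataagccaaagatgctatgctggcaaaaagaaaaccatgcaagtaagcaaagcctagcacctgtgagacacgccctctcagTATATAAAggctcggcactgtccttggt
Krt77: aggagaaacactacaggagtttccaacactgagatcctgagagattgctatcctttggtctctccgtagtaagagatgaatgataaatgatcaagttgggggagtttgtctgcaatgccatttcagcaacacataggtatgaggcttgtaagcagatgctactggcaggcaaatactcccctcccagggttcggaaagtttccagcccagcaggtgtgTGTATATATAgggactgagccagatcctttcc

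The TATA box letters matched 2 times in Krt10, 28 and 26 bases before the start, 3 times with overlap in Krt77, and 1 time in Krt2, but not in the windows of Krt5 and Krt14, and 22.56% of 32851 promoters of the same length held a match. The AP-1 letters TGANTCA, the family to which Junb belongs, matched in none of the 5 windows, against 6.75% of all promoters. The AP-2 letters GCCNNNGGC also matched in none of the 5, against 13.73% of all promoters. These matches describe letters in a short window.

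The deleted gene, Junb, had FPKM values (fragments scaled by transcript length and library size) of 59.3, 72.4 and 56.9 in JunB +/+ replicates 0, 1 and 2. Labelled JunB dep, replicates 0, 1 and 2 had 129.6, 42.8 and 28.0 FPKM. Replicate 0 was therefore above every control, against the direction of its label, while the other 2 libraries were below every control. The limma difference in log2(FPKM + 0.5) was −0.21 (SE 0.55, adjusted p = 0.901, n = 3 and 3), and without replicate 0 it was −0.84 (SE 0.23, 95% interval −1.44 to −0.24, adjusted p = 0.359 from limma). The library labelled JunB dep replicate 0 also stood apart by its marker genes. The 9 mucosal genes, such as those of lining epithelia of the mouth, summed to 3868 FPKM in it against 39.5 to 105 in the other 5 libraries, and the type I keratin Krt13 and the type II keratin Krt4 of such epithelia stood at 1990 and 1356 FPKM there and below 1 FPKM elsewhere. None of the 9 was at 0 in it, and up to 2 were at 0 in each other library. The 26 general keratinocyte genes summed to 10019 FPKM in it against 4321 to 6457, and the 10 adipocyte genes to 101 FPKM against 2064 to 15771. Immune cell genes summed to 869 FPKM in it, against 252 to 495 in the controls and 103 and 255 in JunB dep replicates 1 and 2. Proliferation genes summed to 349 and 405 FPKM in JunB dep replicates 0 and 1, against 102 to 184 in the controls and 115 in JunB dep replicate 2. Skeletal muscle genes were low in all 3 JunB dep libraries, at 2303 to 5555 FPKM against 24681 to 34068 in the controls. The part of these genes in the values below was not tested, and the limma differences are given with and without that library.

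In the 3 control libraries Krt10 was the most abundant member, at 3344 ± 794 FPKM (SD, n = 3), followed by Krt5 at 2108 ± 481, Krt15 at 1746 ± 636, Krt77 at 1697 ± 428, Krt14 at 1090 ± 236, Krt1 at 713 ± 212, Krt80 at 215 ± 75.2 and Krt2 at 0.863 ± 0.207. Each level is per transcript length, so that genes may be compared. Krt10 and Krt5 held the first and second places in each control library, Krt14 the fifth, Krt1 the sixth, Krt80 the seventh and Krt2 the last. Krt15 and Krt77 exchanged places 3 and 4 among controls, and their ranges overlapped each other and that of Krt5. Krt14 and Krt1 also overlapped in range, and so did Krt10 and Krt5. Over the 3 controls the highest value of a member was 1.56 to 2.14 times its lowest.

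**Figure D1:**
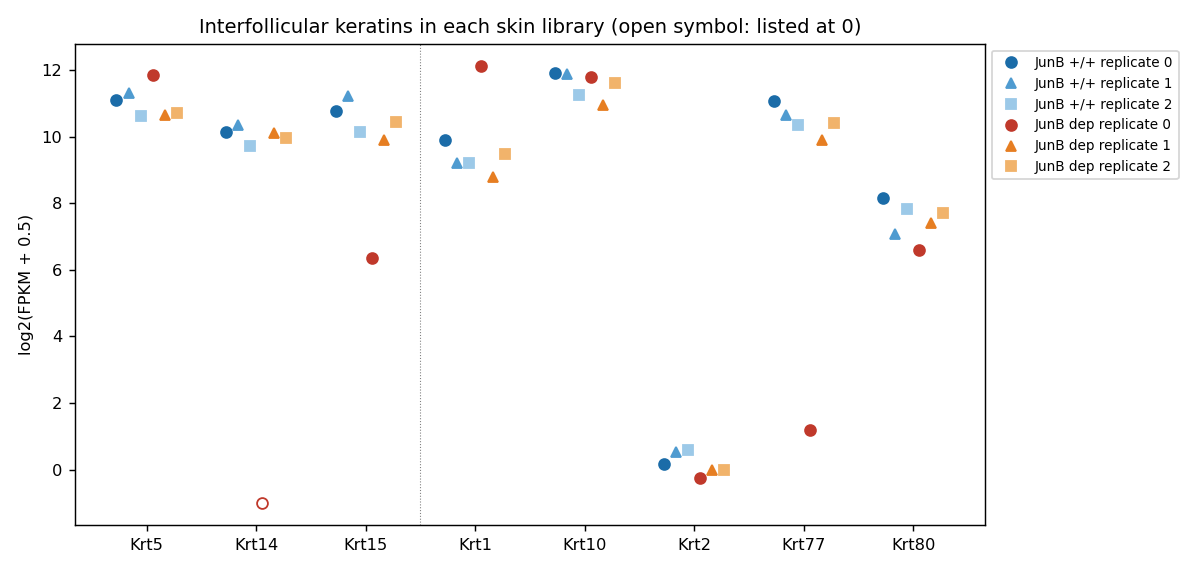
Level of each of the 8 keratins, as log2(FPKM + 0.5), in the 3 JunB +/+ and 3 JunB dep libraries. Each symbol is 1 library and the dotted line parts basal from suprabasal keratins and Krt80. The library labelled JunB dep replicate 0 lies far below the others for Krt77 and Krt15, is listed at 0 for Krt14 (open symbol), and lies above them for Krt1 and Krt5.

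Among the basal keratins, Krt5 was at 2198, 2538 and 1588 FPKM in JunB +/+ replicates 0, 1 and 2 and at 3725, 1615 and 1658 FPKM in JunB dep replicates 0, 1 and 2. The groups overlapped, since only the library labelled JunB dep replicate 0 was above every control, 1.77-fold the control mean, and replicates 1 and 2 lay near the lowest control. The limma difference was 0.06 on the log2 scale (SE 0.45, 95% interval −1.05 to 1.16, adjusted p = 0.970), and −0.34 (SE 0.38) without the library labelled JunB dep replicate 0.

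Krt14, the type I partner of Krt5, was at 1129, 1304 and 837 FPKM in the control libraries and at 1114 and 994 FPKM in JunB dep replicates 1 and 2, and it was listed at 0 in the library labelled JunB dep replicate 0. The 2 JunB dep libraries with a value fell inside the control range. A 0 beside values of 837 to 1304 FPKM in 5 other libraries can be a failed estimate rather than absence. Among all genes, 7 such values were found, 0 in 1 library and at least 3 FPKM in each of the other 5, and 6 of them were in this library: Krt14, Krt16, Krt6a, Krt75, Mrgprb3 and S100a9. Krt16 and Krt6a are keratins of injured and hyperproliferative epidermis, and 4 of the 7 values were of keratins. The coding sequence of Krt14 was identical to that of Krt16 at 86.4% of aligned bases with 1 shared run of 134 bases, and to that of Krt17 at 84.1% with a run of 71. Krt5 and Krt6a shared 81.9% with a run of 140 bases, so reads of these genes could be split between copies in an unknown way. Taking the 0 as a value, the limma difference of Krt14 was −3.71 (SE 2.99, adjusted p = 0.722), and taking it as missing it was −0.027 (SE 0.33, adjusted p = 0.981).

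Krt15, a further basal and follicle bulge keratin, was at 1732, 2388 and 1117 FPKM in the controls and at 80.7, 947 and 1374 FPKM in JunB dep replicates 0, 1 and 2. The library labelled JunB dep replicate 0 was 13.8-fold below the lowest control, replicate 1 was a little below it, and replicate 2 was inside the control range. The limma difference was −1.82 (SE 1.09, 95% interval −4.47 to 0.84, adjusted p = 0.722), and −0.55 (SE 0.45) without the library labelled JunB dep replicate 0.

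Among the suprabasal keratins, Krt1 was at 958, 595 and 587 FPKM in the controls and at 4466, 446 and 712 FPKM in JunB dep replicates 0, 1 and 2. The library labelled JunB dep replicate 0 was 4.66-fold above the highest control, replicate 1 was below every control and replicate 2 was inside their range. By FPKM, Krt1 held place 4 among all genes in that library and places 73 to 163 in the other 5. The limma difference was 0.69 (SE 0.87, 95% interval −1.42 to 2.81, adjusted p = 0.790), and −0.30 (SE 0.37) without that library.

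Krt10, which pairs with Krt1, was at 3872, 3730 and 2431 FPKM in the controls and at 3517, 1968 and 3123 FPKM in JunB dep replicates 0, 1 and 2. Only JunB dep replicate 1 lay outside the control range, below it. The limma difference was −0.23 (SE 0.41, 95% interval −1.24 to 0.77, adjusted p = 0.849), and −0.40 (SE 0.48) without the library labelled JunB dep replicate 0.

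Krt77, a suprabasal type II chain, was at 2159, 1620 and 1313 FPKM in the controls and at 1.79, 945 and 1370 FPKM in JunB dep replicates 0, 1 and 2. The library labelled JunB dep replicate 0 was 731-fold below the lowest control, replicate 1 was below the control range and replicate 2 inside it. Of 601 genes with at least 100 FPKM in every control and no 0 of the kind described, Krt77 had the largest fall in that library, followed by Car3 at 149.5-fold and Retnla at 137.1-fold, while Krt15 held place 17 and Krt1 place 5 for a rise. The limma difference of Krt77 was −3.53 (SE 2.43, 95% interval −9.46 to 2.40, adjusted p = 0.722), and −0.55 (SE 0.39) without that library.

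Krt2 was at 0.625, 0.959 and 1.00 FPKM in the controls and at 0.334, 0.494 and 0.484 FPKM in JunB dep replicates 0, 1 and 2. It was the only member whose groups did not overlap, at levels that placed it between 13062 and 14642 in the order of all genes. The limma difference was −0.53 (SE 0.20, 95% interval −1.03 to −0.04), with an unadjusted p of 0.0387 from limma and an adjusted p of 0.601. At these levels the added 0.5 sets its size, since it was −0.83 with 0.1 added and −0.37 with 1 added, and it was −0.85 after rescaling by the general keratinocyte genes. Without the library labelled JunB dep replicate 0 it was −0.45 (SE 0.21). Krt80 was at 282, 134 and 228 FPKM in the controls and at 97.2, 170.5 and 210.4 FPKM in JunB dep replicates 0, 1 and 2, so that only replicate 0 was below every control. Its limma difference was −0.43 (SE 0.40, 95% interval −1.40 to 0.54, adjusted p = 0.726), and −0.12 (SE 0.36) without that library. Single controls moved it too, to −0.20 without JunB +/+ replicate 0 and −0.74 without JunB +/+ replicate 1.

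Over all 8 keratins limma called 0 at an adjusted p below 0.05, beside 235 of 17021 genes (1.38%), and 1 of 8 at an unadjusted p below 0.05, beside 7.56% of all genes. The groups did not overlap for 1 of 8, Krt2, which was lower in JunB dep, beside 9.16% of all genes with every JunB dep library below every control. The median log2 difference of the 8 was −0.48 (2 positive, 6 negative), beside 0.03 over all genes tested, and −0.37 (0 positive, 8 negative) without the library labelled JunB dep replicate 0, with adjusted p of 0.709 to 0.982. With only the 0 of Krt14 in that library taken as missing, the median of the 8 was −0.33. In that library 5 of the 8, with Krt14 counted at its 0, lay below every control and 2 above, beside 39.3% and 37.4% of all genes. In JunB dep replicate 1, 5 lay below and 0 above, beside 33.1% and 34.5%, and in replicate 2 these were 1 and 0, beside 21.3% and 25.1%.

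**Figure D2:**
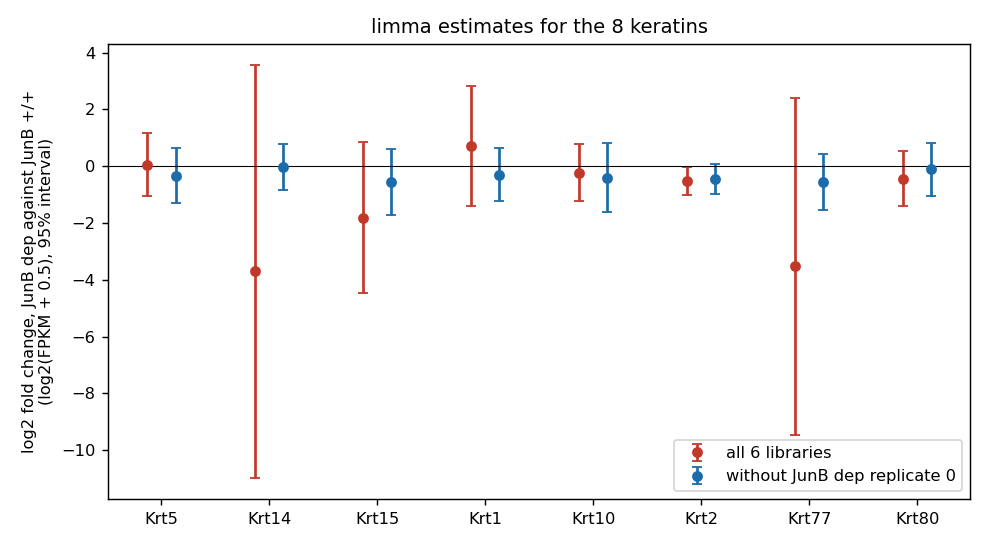
limma difference between JunB dep and JunB +/+ for each of the 8 keratins on the log2(FPKM + 0.5) scale, with 95% intervals, over all 6 libraries (red) and without the library labelled JunB dep replicate 0 (blue). The intervals of Krt14, Krt77, Krt15 and Krt1 are far narrower without that library. The interval of Krt2 alone does not reach 0 with all 6 libraries, and without that library each of the 8 does.

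The mix of the 8 keratins was set out as shares of their summed FPKM. Krt10 made up 27.3% to 33.1% of their summed FPKM in all 6 libraries. In the library labelled JunB dep replicate 0, Krt1 made up 37.6%, against 4.84% to 7.77% in the other 5, and Krt5 31.3% against 17.6% to 22.4%. Krt77 made up 0.0151% there against 13.1% to 17.5%, and Krt15 0.679% against 13.1% to 19.4%. Krt14 counted as 0 in that sum, so the other shares there would be lower if the 0 was a failed estimate. Shares also differed among the other 5 libraries, where Krt14 made up 15.5% in JunB dep replicate 1 and 9.16% to 10.6% in the rest, and Krt80 made up 1.09% to 2.82%. The summed FPKM of the 8 was 12332, 12311 and 8103 in the controls and 11889, 7207 and 9443 in JunB dep replicates 0, 1 and 2, so the library with the altered mix did not have a low sum.

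**Figure D3:**
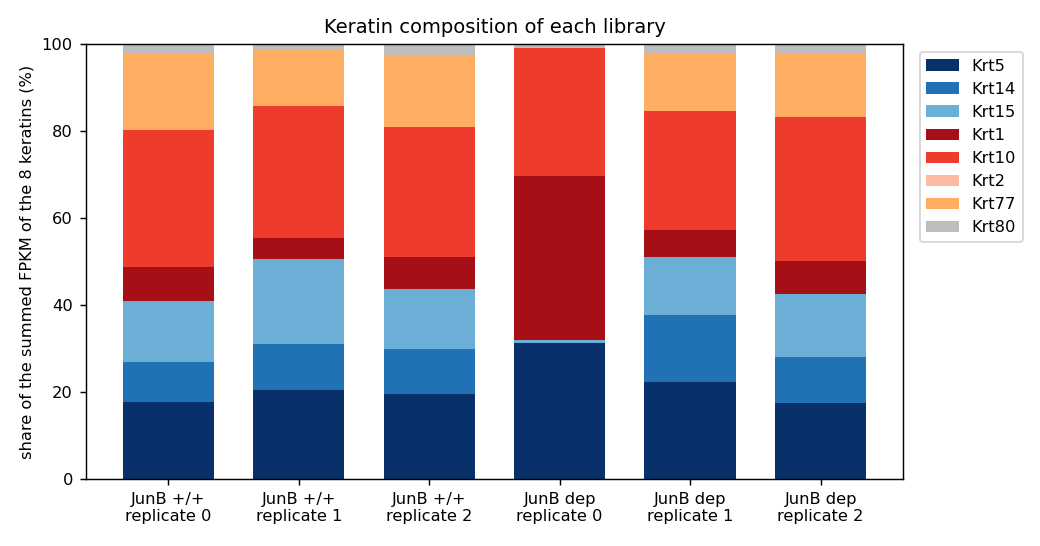
Share of each keratin in the summed FPKM of the 8, in percent, in each of the 6 libraries. Krt10 takes 27.3% to 33.1% in every library, while in the library labelled JunB dep replicate 0 Krt1 takes 37.6% and Krt77 0.0151%, and Krt14 is listed at 0.

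Within a library the pairing of chains was compared as ratios of FPKM. Krt5 to Krt14 was 1.95, 1.95 and 1.90 in the controls, the narrowest of these ratios, and 1.45 and 1.67 in JunB dep replicates 1 and 2, both below the controls. It cannot be formed in the library labelled JunB dep replicate 0. Krt1 to Krt10 was 0.247, 0.160 and 0.241 in the controls and 0.227 and 0.228 in JunB dep replicates 1 and 2, but 1.27 in that library. Krt2 to Krt10 was 0.000161, 0.000257 and 0.000413 in the controls and 9.48e-05, 0.000251 and 0.000155 in JunB dep replicates 0, 1 and 2, so the groups overlapped in this ratio. The ratio of Krt77 to Krt10, chosen after its values were seen, was 0.434 to 0.557 in the controls, 0.480 and 0.438 in JunB dep replicates 1 and 2, and 0.000510 in the library labelled JunB dep replicate 0. In replicate 1, therefore, Krt77 was below every control in level but inside their range relative to Krt10. Relative to Krt1, a ratio also chosen after its values were seen, Krt77 was 2.24 to 2.72 in the controls and 2.12 and 1.92 in JunB dep replicates 1 and 2, below every control, and 0.000402 in replicate 0. The ratio of Krt15 to Krt5, chosen in the same way, was 0.703 to 0.941 in the controls and 0.0217, 0.587 and 0.829 in JunB dep replicates 0, 1 and 2. The suprabasal to basal ratio Krt10 to Krt5 was 1.76, 1.47 and 1.53 in the controls and 0.944, 1.22 and 1.88 in JunB dep replicates 0, 1 and 2, and showed no common direction. Krt1 to Krt5 was 0.436, 0.235 and 0.369 in the controls and 1.20, 0.276 and 0.430 in JunB dep replicates 0, 1 and 2. In replicate 0 it was above every control, while Krt10 to Krt5 was below every control. Krt10 to Krt14 was 2.86 to 3.43 in the controls and 1.77 and 3.14 in JunB dep replicates 1 and 2. That ratio cannot be formed in replicate 0. Over the type II and type I members the ratio was 0.659 to 0.848 in the controls and 0.719 and 0.788 in replicates 2 and 1, but 2.30 in replicate 0, where Krt14 counted as 0. Over all 52 keratins it was 1.06 in that library and 0.620 to 0.806 in the other 5.

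In chromosome order, neighbours of the members differed from the controls in unlike directions in the library labelled JunB dep replicate 0. Krt1 was 6.26-fold the control mean and its neighbour Krt77 was 946-fold below it, while Krt76 and Krt4, the next genes beyond Krt77, were at 52.5 and 1356 FPKM, against less than 1 FPKM in each other library. Krt13, next to Krt15, was at 1990 FPKM and Krt15 at 80.7 FPKM. Krt17, next to Krt16, was at 4025 FPKM against 626, 837 and 719 FPKM in the controls and 1319 and 713 FPKM in JunB dep replicates 1 and 2. Krt1 and Krt77 were identical at 72.5% of aligned coding bases with a longest shared run of 23 bases. Whether reads were shared between them was not tested.

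**Figure D4:**
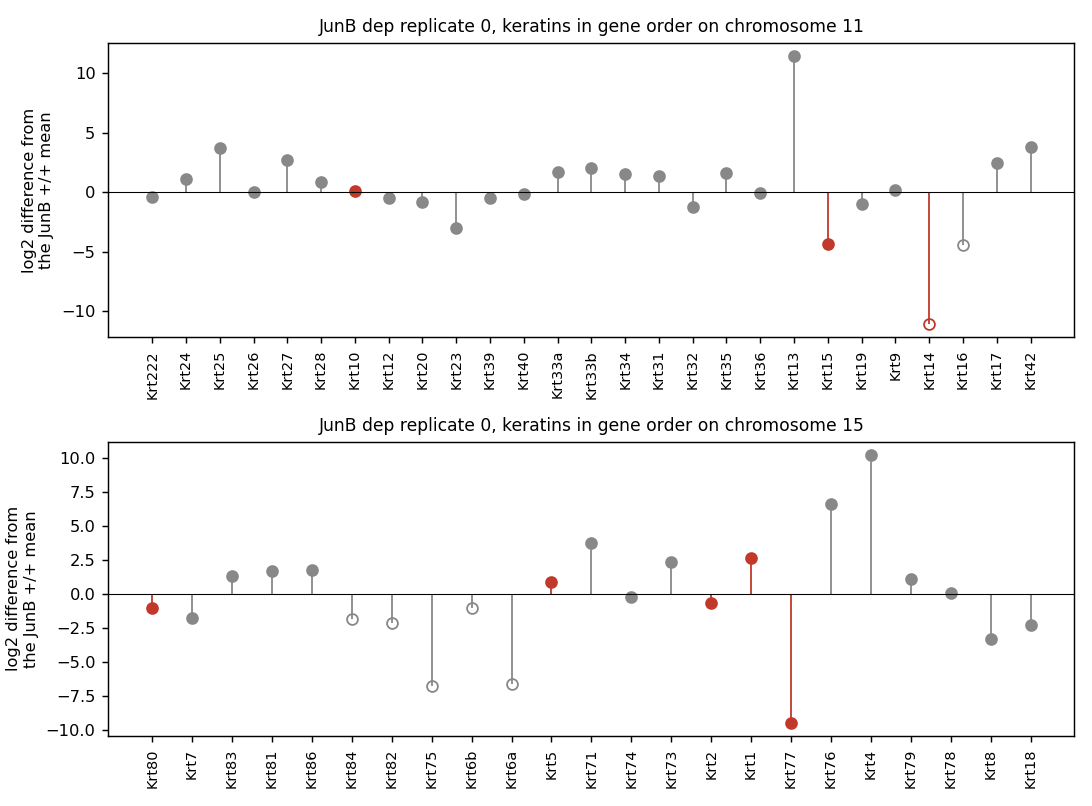
log2 difference in log2(FPKM + 0.5) of the library labelled JunB dep replicate 0 from the mean of the 3 JunB +/+ libraries, for the keratins in gene order on chromosomes 11 and 15. Members are red and open symbols are listed at 0, for which the depth of the fall depends on the added 0.5. Krt77 lies lowest of the genes with a value above 0 FPKM, between Krt1 and Krt76, which both lie above the line, and Krt15 lies low beside the high Krt13.

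Set against the other keratins, the 8 made up 90.1%, 89.2% and 54.95% of the summed keratin FPKM in JunB +/+ replicates 0, 1 and 2 and 58.2%, 40.9% and 84.9% in JunB dep replicates 0, 1 and 2. The low shares in JunB +/+ replicate 2 and JunB dep replicate 1 came with high levels of hair genes. The 10 inner root sheath genes summed to 3540 and 6167 FPKM in these 2 libraries, 41.7 and 42.7 in JunB +/+ replicates 0 and 1, and 304 and 131 in JunB dep replicates 0 and 2. The 13 hair shaft genes summed to 1732 and 2165 FPKM in the same 2 libraries and to at most 106 in the other 4. Their summed FPKM of the 8, 8103 and 7207, was also the lowest of each group. The share was also low, 58.2%, in the library labelled JunB dep replicate 0, where the hair gene sums were far below those of these 2 libraries and Krt17, Krt13 and Krt4 stood at 4025, 1990 and 1356 FPKM. Krt14, Krt16, Krt6a and Krt75 were listed at 0 there, and the 58.2% rests on these values too. The part of the hair genes in these shares was not tested, and the libraries do not separate by genotype in them.

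The keratins were also set against other genes of the keratinocyte, all of which were above 0 in every library. The 26 general keratinocyte genes had a median log2 difference of 0.63, 0.42 and −0.07 from the control mean in JunB dep replicates 0, 1 and 2. Relative to that median, the 8 keratins in replicate 1 lay at −1.23 (Krt15), −1.23 (Krt77), −1.15 (Krt10), −1.06 (Krt1), −0.86 (Krt2), −0.78 (Krt5), −0.69 (Krt80) and −0.36 (Krt14). On this scale the controls lay between −0.59 and 0.60. In JunB dep replicate 1 Krt14 was inside the control range, and Krt80 was little below its lowest control, −0.53. The other members there were further below every control. JunB +/+ replicate 2, also high in hair genes, lay at −0.59 (Krt15) to −0.26 (Krt1) for all members but Krt2 and Krt80. In JunB dep replicate 2 the 8 keratins lay between −0.39 and 0.10. In the library labelled JunB dep replicate 0 they ranged from −10.13 for Krt77 to 2.05 for Krt1, leaving out Krt14. A keratin mix far from the controls, then, was seen in replicate 0, a lower level of most of the 8 in replicate 1, and values inside the control range in replicate 2 for all but Krt2, which was below every control.

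The lists of the layers had positive medians over all 6 libraries, where that of the 8 keratins was negative. Their counts at an unadjusted p below 0.05 from limma stand beside 7.56% of all genes tested. Of 16 basal layer genes limma called 0 (2 at an unadjusted p below 0.05), with 11 positive and a median of 0.39, and without the library labelled JunB dep replicate 0 the median was 0.14 with 9 positive. Of 30 tested spinous and granular genes limma called 0 (1 at an unadjusted p below 0.05), with 22 positive and a median of 0.25, and without that library the median was −0.02 with 14 positive. That gene was Dsg1a, a desmosomal cadherin of the suprabasal layers, at 113, 101 and 85.0 FPKM in the controls and 58.1, 69.0 and 62.2 FPKM in JunB dep, with groups that did not overlap (log2 difference −0.65, SE 0.17, adjusted p = 0.257, and −0.59 without that library). In the same list the groups also did not overlap for Tgm1, the transglutaminase of the cornified envelope, at 32.0, 26.4 and 39.9 FPKM in the controls and 144.5, 61.9 and 40.5 FPKM in JunB dep replicates 0, 1 and 2 (1.13, adjusted p = 0.671, and 0.63 without that library). They did not overlap either for Cnfn, which encodes the envelope protein cornifelin, at 149.3, 213.2 and 184.6 FPKM in the controls and 1757, 309.1 and 217.7 FPKM in JunB dep (1.44, adjusted p = 0.722, and 0.52 without that library). Over all 17021 genes tested, 956 had every JunB dep library above every control and 1559 had every one below. These 3 of 30 genes therefore do not set the list apart. In the library labelled JunB dep replicate 0 the spinous and granular genes had a median log2 difference of 0.97 from the control mean and the highest sum of the 6 libraries, 17552 FPKM. Single genes of the list lay far to either side. Flg2, a filaggrin family protein, was at 3.08 FPKM there against 68.2 to 139 in the other 5 libraries. Rptn, which encodes the envelope protein repetin, was between 1.42 and 4.26 FPKM in the other 5 libraries and at 392.2 FPKM there. Loricrin (Lor), the main cornified envelope protein, was at 823 FPKM there against 1408 to 3011. Of 30 regulators of keratin genes limma called 0 and 4 had an unadjusted p below 0.05, beside 7.56% of all genes: Tfap2c, an AP-2 factor (0.79, adjusted p = 0.517, and 0.57 without that library), Fosl2, an AP-1 subunit (1.03, adjusted p = 0.639, and 0.60), Hopx (0.94, adjusted p = 0.621, and 0.77) and Satb1 (−1.47, adjusted p = 0.423, and −1.004). Of the 17 gene lists beside the 8 keratins, skeletal muscle was the only one with called genes, 10 of 15 lower in JunB dep. Without the library labelled JunB dep replicate 0, 3 of the 15 were called. With the replicate block, a block on the number series of the titles, or any 1 control or JunB dep replicate 1 left out, 0 genes of the whole table were called.

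The genes with profiles most like each member other than Krt14 over the 6 libraries, among those with a mean of at least 10 FPKM, were ranked by the root mean square difference between centred log2 profiles. The closest were Trex1 for Krt5 (0.10), Sult5a1 for Krt15 (0.21), H60c for Krt1 (0.15), Krt78 for Krt10 (0.10), Pecr for Krt2 (0.08) and Mxd4 for Krt80 (0.14). No gene came near Krt77, the closest being Retnla (0.83) and Car3 (0.84). Of the 3 closest genes of each of these 7 members, 4 of 21 were found again without the library labelled JunB dep replicate 0, namely Cfp for Krt10, Pecr for Krt2, and Mxd4 and Itpkb for Krt80. None of those of Krt5, Krt15, Krt1 and Krt77 were. Krt77 then had Il20rb (0.03) as its closest gene and Krt1 had Flg2 (0.05), a gene that went the other way from Krt1 in that library.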

How the data were processed

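Poly(A) RNA of whole skin from 3 JunB +/+ and 3 JunB dep mice was sequenced with a strand-specific kit. The authors deposited FPKM values per gene and mouse. Their processing notes name FastQC, TopHat2 2.0.10, Bowtie 1.0.0, SAMtools 0.1.19 and Cufflinks, and the mm9 build. Neither the tool that made the FPKM values nor a scaling between libraries is given in those sources. The FPKM values sum to 481078 to 630363 per library. Read numbers are unknown, so no counting interval is given.

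The test was limma 3.58.1 (R 4.3.3) with its intensity trend on log2(FPKM + 0.5). It covered 17021 genes, those averaging 0.1 FPKM or more. It was two-sided, and p-values were adjusted over those genes by the Benjamini-Hochberg method and called below 0.05. Each mouse is 1 sample. The spread of 3 against 3 mice sets the precision, and limma's adjusted p-values rest on it. The members, the gene lists and the tests were chosen with earlier results of these data known. The genes named are the members, Junb, genes of the lists, genes with the most like profiles and genes with a 0 beside at least 3 FPKM in the other 5 libraries. Other genes were named after their values were seen. Coding sequences were aligned with Biopython 1.88. Alternatives were another pseudocount, filter, scaling, a block, and leaving out each library. The genes with profiles most like that of Krt14 are not reported here.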

Additional observations from a re-analysis of the deposited data

How the results depend on the processing

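Limma called 0 of the 8 keratins in every alternative run. Over all genes the 235 calls became 143 after rescaling by the general keratinocyte list, 0 with the replicate block and 0 with a block on the number series of the titles, which puts JunB dep replicate 0 with JunB +/+ replicates 0 and 1 and the other 3 libraries together. That last block moved Krt1 from 0.69 to 1.25, Krt5 from 0.06 to 0.35 and Krt10 from −0.23 to −0.042. It lowered Krt14 from −3.71 to −5.46, with its 0 taken as a value, Krt77 from −3.53 to −4.94 and Krt15 from −1.82 to −2.31. Krt80 went from −0.43 to −0.63, Krt2 from −0.53 to −0.61 and the median of the 8 from −0.48 to −0.62. Leaving out 1 library gave 0 to 254 calls: 0 without JunB +/+ replicate 0, 1 or 2 or JunB dep replicate 1, and 135 without JunB dep replicate 0. The median of the 8 became −0.80 after rescaling by the keratinocyte list. That rescaling lowered every member, such as Krt10 from −0.23 to −0.55, Krt80 from −0.43 to −0.75 and Krt1 from 0.69 to 0.38. The sign changed for Krt5, at −0.26 with that rescaling and −0.34 to 0.26 with 1 library left out (−0.13 without JunB +/+ replicate 2, −0.34 without JunB dep replicate 0), for Krt1 (−0.30 without JunB dep replicate 0; the range over libraries left out was −0.30 to 1.36) and for Krt10 (0.017 without JunB dep replicate 1; range −0.45 to 0.017). The cause was not tested. Without JunB dep replicate 0, 4 of 21 genes with the most like profile remained. A filter at a mean of 1 FPKM left out Krt2. No pairing of the libraries by replicate number was seen: the correlations of deviations were 0.12, −0.23 and −0.43, and 1 of 6 libraries correlated best with its own number. With so few mice this cannot tell whether the libraries were paired.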
